A study of Rattus norvegicus with 6 samples.

Results

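The genes described here are the chemokines, cytokines and their receptors that the array measured in the circumventricular organs of the rat. They were taken by symbol. An annotated single symbol that began with Ccl, Cxcl, Cxcr, Cx3c, Tnfsf or Tnfrsf, or with Ccr or Il followed by a digit, made a gene a member. This gave 106 members of 12199 genes with a single symbol, and each was represented by its brightest probe by the mean over the 6 arrays. They comprised 15 CC ligands, 12 CXC and CX3C ligands, 13 chemokine receptors, 21 interleukins, 27 interleukin receptors, antagonists and decoys, 7 TNF superfamily ligands and 11 members of the TNF receptor superfamily. A value on all 6 arrays was present for 104 members. Cxcl9 lacked a value on 1 pineal gland array and Tnfsf11 lacked one on the subcommissural organ array, so both stayed outside the comparisons.

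Chemokines are small secreted proteins that steer migrating cells along a gradient by binding receptors coupled to G proteins, and interleukins and TNF family ligands carry signals between immune cells and between immune cells and tissue. In the brain, neurons, glia, ependyma and vessel cells make some of them at rest, and microglia depend on such signals for survival and for contact with neurons. Circumventricular organs lie beside the ventricles, and most of them, the pineal gland and the subfornical organ included, have vessels without a tight blood-brain barrier, so that blood-borne signals and immune cells can reach them.

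The animals were adult male Sprague-Dawley rats described as normal, with no treatment, and total RNA was labelled for 1-colour arrays after 2 rounds of amplification from 3 ng. Laser capture supplied the pineal gland (2 arrays) and, with 1 array each made from a pool of 2, ependyma of the third ventricle, subfornical organ and subcommissural organ, and a pool of total brain from normal rats (1 array) served as the reference. Laser capture is not named for total brain, so tissue and way of collection cannot be told apart in comparisons with it. Ependyma was sampled away from the subcommissural and subfornical organs, and the labels do not say whether the pineal gland arrays were separate animals, so a p-value measures only the spread between them, which may be technical. Values are the deposited linear intensities, on which each array had a median between 1.04 and 1.07, and 1.05 is the pooled median used below as the level a gene has to reach. The 75th percentile was 7.93 in total brain and between 4.90 and 6.31 on the other arrays. With so few arrays, precision is limited throughout.

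The summed intensity of 6 pinealocyte genes was 1193 and 915 in the pineal gland and between 26.5 and 133 elsewhere. That of 6 genes of motile cilia was 1337 in the ependyma, 1188 in the subcommissural organ, 292 in the subfornical organ and between 15.0 and 52.0 on the other arrays. The 3 subcommissural organ genes on the array summed to 270 there, 206 in the ependyma and at most 37.8 elsewhere. Of the subfornical organ markers Agtr1a and Scn7a, the summed intensity was 5.37 there and 22.97 and 12.1 in the pineal gland, so these markers did not set the subfornical organ apart. Probes of Foxj1, a defining factor of motile cilia, and Snap25, a defining gene of neurons, reached 1.05 on no array. In bulk tissue, fewer cells of a type and less RNA per cell cannot be told apart.

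Most members were dim. Of 104 members, 63 (60.6%) reached 1.05 on at least 1 array, where 82.1% of all genes did so. On all 6 arrays 21 members (20.2%) reached it, against 51.8% of all genes. The subfornical organ had the most, 46 members, followed by the pineal gland with 39, total brain with 35, the ependyma with 33 and the subcommissural organ with 30, where between 65.8% and 68.7% of all genes reached it in each tissue. By class, the share that reached 1.05 on at least 1 array ran from 8 of 21 interleukins to 8 of 11 of the CXC and CX3C ligands and 8 of 11 of the TNF receptor superfamily. The 13 interleukins that reached it on no array were Il1f10, Il2, Il3, Il4, Il5, Il6, Il7, Il9, Il10, Il13, Il17b, Il23a and Il24. They were named after their values were seen. Above 6.04, the pooled 75th percentile, on all 6 arrays stood 5 members, namely Il6st, Cxcl14, Tnfrsf9, Ccl27 and Cx3cl1, or 4.81% of members against 26.5% of all genes.

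**Figure D1:**
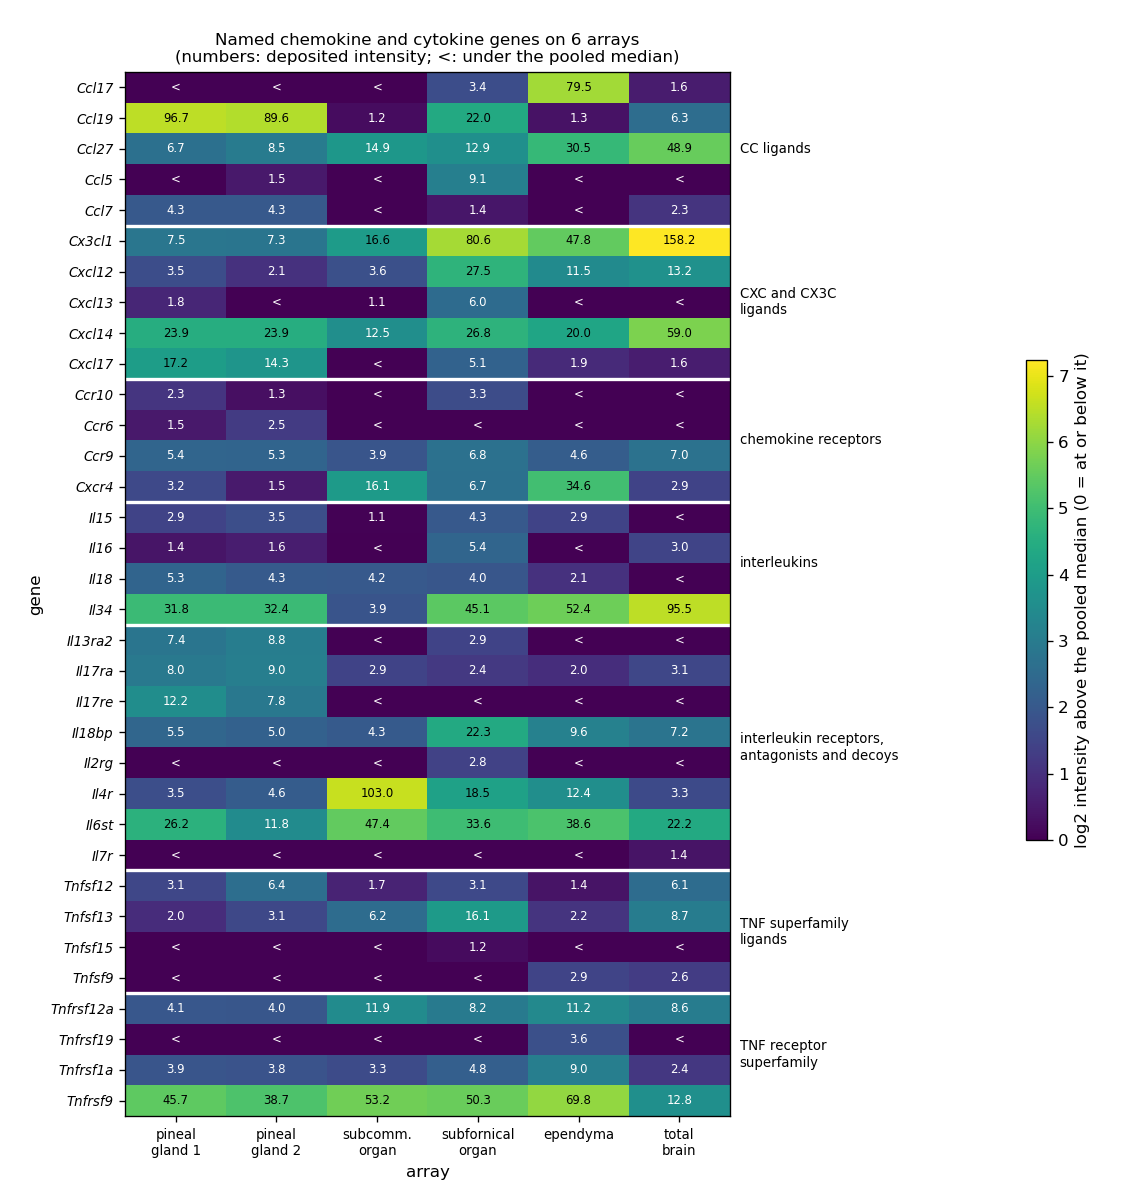
Deposited intensity of 34 named members (rows, by class) on the 6 arrays (columns). Colour is log2 intensity above the pooled median of 1.05, cells print the intensity, and a < marks a value under that median. Ccl17 is bright in the ependyma (79.5), Ccl19 in the pineal gland (96.7 and 89.6) and Il4r in the subcommissural organ (103).

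A tissue was taken as marked by a gene that stood at least 4-fold above each other tissue, taking the lower pineal gland array when the gland was tried as the marked tissue and the higher array when it was one of the others. Of 104 members 8 (7.69%) marked a tissue, against 3.70% of all genes. Ccl17 and Tnfrsf19 marked the ependyma (0.436% of all genes), Ccl19 and Il17re the pineal gland (0.847%), Ccl5 and Il2rg the subfornical organ (0.625%), Il4r the subcommissural organ (0.493%) and Il7r total brain (1.30%). By class these were 3 of 15 CC ligands, 4 of 27 interleukin receptors, antagonists and decoys, and 1 of 11 TNF receptor superfamily members. No CXC or CX3C ligand, chemokine receptor, interleukin or TNF superfamily ligand did so. With values under 1.05 set at 1.05, 5 of the 8 still marked a tissue. The share of all genes was not counted under this bound, so 7.69% against 3.70% holds only for the unbounded values.

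The 250 bases that precede the start are shown for Ccl17, Ccl19 and Il4r, which mark different tissues, and for Cxcl17, which was highest in the pineal gland. They were available for 80 of the 106 members and come from RefSeq on the rat build GRCr8, printed 5′ to 3′ on the gene's own strand. Capitals mark a match to TAATCC, the core site of the CRX and OTX factors of the pineal gland, or to TTCNNNGAA, the GAS element of STAT factors. The intervals are chr19:10209896-10210145 on the minus strand for Ccl17, chr5:61761165-61761414 on the minus strand for Ccl19, chr1:189545525-189545774 on the plus strand for Il4r and chr1:90124536-90124785 on the minus strand for Cxcl17.
Ccl17: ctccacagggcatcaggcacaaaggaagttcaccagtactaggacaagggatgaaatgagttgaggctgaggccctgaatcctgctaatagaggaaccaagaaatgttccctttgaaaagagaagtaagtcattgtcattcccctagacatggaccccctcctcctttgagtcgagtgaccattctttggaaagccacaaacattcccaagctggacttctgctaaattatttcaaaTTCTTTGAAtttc
Ccl19: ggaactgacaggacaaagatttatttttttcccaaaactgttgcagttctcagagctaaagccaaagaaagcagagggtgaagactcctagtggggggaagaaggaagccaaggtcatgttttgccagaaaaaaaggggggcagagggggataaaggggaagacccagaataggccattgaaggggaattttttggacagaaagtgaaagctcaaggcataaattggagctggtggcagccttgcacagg
Il4r: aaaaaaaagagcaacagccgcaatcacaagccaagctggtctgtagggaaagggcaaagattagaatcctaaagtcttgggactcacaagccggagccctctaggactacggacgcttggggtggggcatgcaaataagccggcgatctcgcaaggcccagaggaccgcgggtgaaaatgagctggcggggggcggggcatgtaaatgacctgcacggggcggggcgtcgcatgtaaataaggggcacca
Cxcl17: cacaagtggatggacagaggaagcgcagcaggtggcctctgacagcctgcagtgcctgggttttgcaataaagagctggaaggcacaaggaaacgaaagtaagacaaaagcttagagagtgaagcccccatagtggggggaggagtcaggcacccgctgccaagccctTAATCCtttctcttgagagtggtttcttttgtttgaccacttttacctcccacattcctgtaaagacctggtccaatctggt
In Ccl17 the GAS match lay 13 bases before the start, and in Cxcl17 the TAATCC match lay 82 bases before it. Neither motif was found in the Ccl19 and Il4r intervals. Of the other members highest in the pineal gland with a promoter, Il1b had a TAATCC match. Ccl7, Ccl22, Ccr6, Cxcl9, Il10rb, Il18, Il33 and Tnfsf11 had none. Apart from Cxcl17 and Il1b, members with TAATCC were highest in another tissue. On either strand, TAATCC was found in 10 of 80 member promoters (12.5%) and in 6.33% of 27457 promoters of the same length, and TTCNNNGAA in 6 of 80 (7.50%) against 7.52%. The NF-kB consensus was found in 12 of 80 (15.0%) against 3.52%. Of these 12 genes, 8 reached 1.05 on no array, among them Il6, Cxcl2 and Ccl20, named after their values were seen. Among all 104 members 41 (39.4%) did not reach it, and the share among the 80 with a promoter was not counted. On at least 1 array it was reached by 4 of these 12, 6 of the 10 with TAATCC and 3 of the 6 with TTCNNNGAA. These matches are letters in a window and say nothing of binding.

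Among CC ligands, Ccl17 and Ccl19 had the widest ranges over tissues. Ccl17, which draws T cells that carry Ccr4, had an intensity of 0.579 and 0.466 on the pineal gland arrays, 0.156 in the subcommissural organ, 3.40 in the subfornical organ, 79.5 in the ependyma and 1.55 in total brain. Only the ependyma was bright, and both pineal gland arrays and the subcommissural organ lay under the pooled median. The ependyma stood 51.3-fold above total brain, 23.4-fold above the subfornical organ and at least 75.7-fold above both the pineal gland and the subcommissural organ. Another Ccl17 probe gave the same order at the top, with 54.0 in the ependyma, 2.50 in the subfornical organ, 1.62 in total brain and at most 0.517 on the other arrays. Among the lists of other cell types, Hdc, which makes histamine in mast cells and in neurons, also had its highest value in the ependyma. Hdc stood at 162 in the ependyma, 60.4 in the subcommissural organ, where Ccl17 was lowest, and between 3.76 and 15.8 elsewhere. It was 1 of 8 mast cell genes, whose summed intensity was 172 in the ependyma and between 16.3 and 72.0 on the other arrays, and of the defining genes Cpa3 and Mcpt1 reached 1.05 on no array. Cd79b, a chain of the B cell receptor and the only gene of the B cell list on the array, was at 6.23 in the ependyma, 0.963 and 3.08 in the pineal gland, 0.802 in the subcommissural organ, 1.01 in the subfornical organ and 0.371 in total brain. The T cell list summed to between 3.55 and 6.43 on every array, with Cd2, Cd8a and Cd247 never at 1.05. The part of these cells in the Ccl17 level was not tested.

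Ccl19, which guides T cells and dendritic cells through Ccr7, stood at 96.7 and 89.6 in the pineal gland, 1.24 in the subcommissural organ, 22.0 in the subfornical organ, 1.34 in the ependyma and 6.33 in total brain. Its levels therefore followed the order pineal gland, subfornical organ, total brain, with the ependyma and the subcommissural organ close to the pooled median and to each other. Ccr7 reached 1.05 on no array. Ccl27, an epithelial ligand of Ccr10, ran the other way, from 6.75 and 8.53 in the pineal gland through 12.9 in the subfornical organ, 14.9 in the subcommissural organ and 30.5 in the ependyma to 48.9 in total brain. In the rat gene order on GRCr8, Ccl27 and Ccl19 belong to a neighbour group with Il11ra1 and Ccl21, and Ccl17 to another with Cx3cl1 and Ccl22. Of these neighbours, Ccl21 reached 1.05 on no array and Ccl22 was at most 1.47.

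Ccl5, which recruits T cells and monocytes, was at 9.14 in the subfornical organ and at 0.420 and 1.48 in the pineal gland, with 0.388 in the subcommissural organ, 0.567 in the ependyma and 0.529 in total brain. Ccl7, a monocyte attractant, was at 4.25 and 4.26 in the pineal gland, 2.25 in total brain, 1.43 in the subfornical organ, 0.749 in the ependyma and 0.642 in the subcommissural organ. Ccl6 and Ccl4 were named after their values were seen. Ccl6 stood at 2.34 and 3.87 in the pineal gland, 3.08 in the subfornical organ and 2.77 in the ependyma, but at 0.650 in the subcommissural organ and 0.215 in total brain. Its other probe lay under 1.05 on the sides compared and pointed the other way. Ccl4 reached the pooled median in the subcommissural organ alone, at 3.48. On GRCr8, Ccl5, Ccl6, Ccl3 and Ccl4 are neighbours, and Ccl3 reached 1.05 on no array. Across the gene table, 46 of the 106 members lay in 16 such neighbour groups, with at most 5 other coding genes between neighbours.

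**Figure D2:**
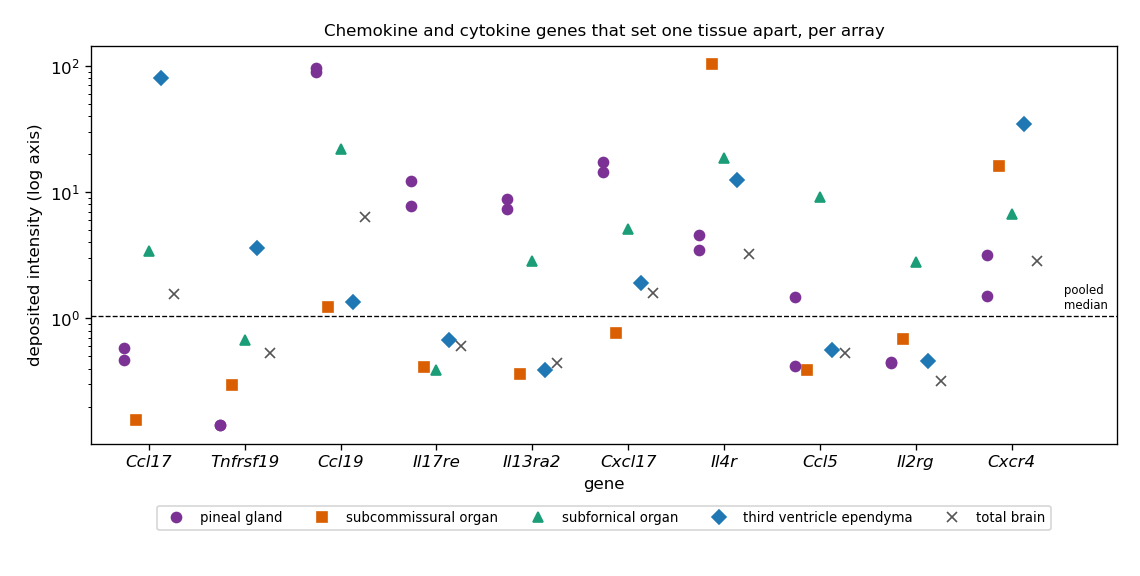
Deposited intensity (log axis) of 10 members on each array, with both pineal gland arrays as circles and 1 symbol for each other tissue. The dashed line is the pooled median of 1.05. Ccl17 stands at 79.5 in the ependyma, Ccl19 at 96.7 and 89.6 in the pineal gland, Il4r at 103 in the subcommissural organ and Ccl5 at 9.14 in the subfornical organ.

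Of the CXC and CX3C ligands, Cx3cl1 and Cxcl14 had their highest values in total brain. Cx3cl1, the tethered chemokine through which neurons signal to microglia, was at 7.54 and 7.33 in the pineal gland, 16.6 in the subcommissural organ, 47.8 in the ependyma, 80.6 in the subfornical organ and 158 in total brain. The summed intensity of 4 neuron genes was 9.20 and 7.10 in the pineal gland, 54.2 in the subcommissural organ, 70.8 in the subfornical organ, 105 in the ependyma and 699 in total brain. Both were lowest in the pineal gland and highest in total brain, and the part of neurons in the level of Cx3cl1 was not tested. Its receptor gene Cx3cr1 did not exceed 0.504 on any array, although the microglial gene Csf1r was at 37.5 or more on all 6.

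Cxcl14, which is made by epithelia and by neurons, varied less, with 23.9 on both pineal gland arrays, 12.5 in the subcommissural organ, 26.8 in the subfornical organ, 20.0 in the ependyma and 59.0 in total brain. Cxcl17, a mucosal chemokine that attracts monocytes and macrophages, was at 17.2 and 14.3 in the pineal gland, 5.09 in the subfornical organ, 1.91 in the ependyma, 1.58 in total brain and 0.762 in the subcommissural organ. Both pineal gland arrays lay above every other array, and the share of all genes that do so was not counted. Cxcl13, which attracts B cells, reached 6.02 in the subfornical organ and between 0.363 and 1.80 elsewhere, and its receptor gene Cxcr5 reached 1.05 nowhere. Cxcl9 and Cxcl10, both induced by interferon, were named after their values were seen. Cxcl9 was at 7.60 on the pineal gland array that had a value and at 4.49 in the subfornical organ, against at most 0.689 on the other arrays. Cxcl10 was at 2.17 and 0.746 in the pineal gland, so that only 1 array of the pair reached the pooled median, and at 1.80 in the subfornical organ.

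Cxcl12 and its receptor Cxcr4, which hold progenitors in place and steer migrating neurons, were bright in different tissues. Cxcl12 was at 3.46 and 2.13 in the pineal gland, 3.58 in the subcommissural organ, 27.5 in the subfornical organ, 11.5 in the ependyma and 13.2 in total brain. Cxcr4 was at 3.19 and 1.51 in the pineal gland, 16.1 in the subcommissural organ, 6.67 in the subfornical organ, 34.6 in the ependyma and 2.87 in total brain. The ependyma and the subcommissural organ, which share the cilia genes given above, had the highest Cxcr4. The part of ciliated cells in the level of Cxcr4 was not tested.

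Other chemokine receptors were low or flat. Of 13 receptor genes, 6 reached the pooled median on at least 1 array, and Cxcr4 and Ccr9 did so on all 6. Ccr9, a receptor of gut-homing T cells, was at 5.35 and 5.29 in the pineal gland and between 3.93 and 6.96 in the other tissues. Ccr10 was at 2.28 and 1.28 in the pineal gland and 3.35 in the subfornical organ, and under 1.05 elsewhere. Ccr6 reached the pooled median only in the pineal gland, at 1.48 and 2.50, while its ligand gene Ccl20 reached it on no array.

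**Figure D3:**
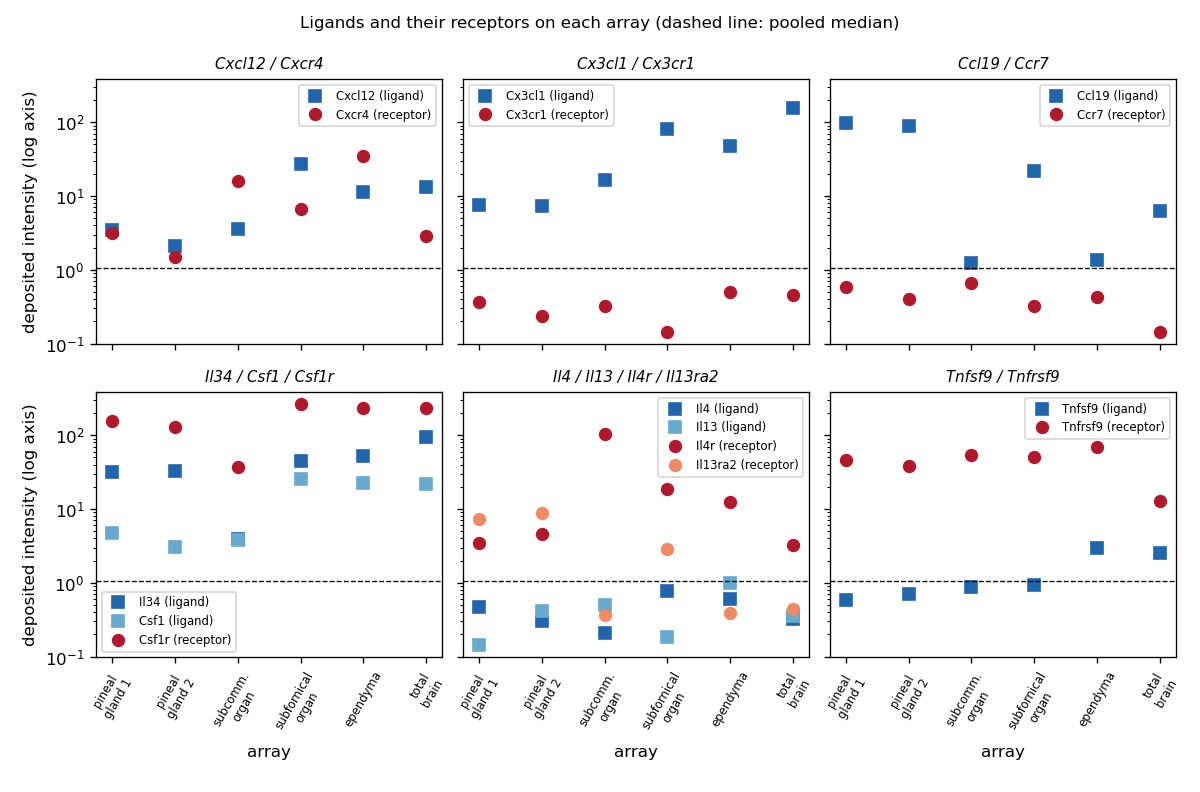
Deposited intensity (log axis) of ligand genes (squares) and receptor genes (circles) on the 6 arrays for 6 systems, with the pooled median as a dashed line. Cxcr4 peaks in the ependyma (34.6) and Cxcl12 in the subfornical organ (27.5), while Cx3cr1, Ccr7, Il4 and Il13 stay under 1.05. Different genes have different probes, so heights compare tissues within a gene.

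Il34 was lowest in the subcommissural organ. This ligand of Csf1r, which keeps microglia alive, was at 31.8 and 32.4 in the pineal gland, 3.86 in the subcommissural organ, 45.1 in the subfornical organ, 52.4 in the ependyma and 95.5 in total brain. Csf1r itself was at 156 and 128 in the pineal gland, 37.5 in the subcommissural organ, 263 in the subfornical organ, 237 in the ependyma and 231 in total brain. Csf1, the other ligand of that receptor, was at 4.67 and 3.03 in the pineal gland, 3.83 in the subcommissural organ, 25.6 in the subfornical organ, 22.8 in the ependyma and 22.1 in total brain. Il34 and Csf1r were lowest in the subcommissural organ, and Csf1 was low there and in the pineal gland. The 13 measured microglia and macrophage genes, Csf1r among them, summed to 108 there, the lowest of the 6 arrays, with 8 of the 13 at or above 1.05, and their part in the level of Il34 was not tested.

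Il18, a cytokine of the inflammasome, was at 5.33 and 4.35 in the pineal gland, 4.24 in the subcommissural organ, 4.0 in the subfornical organ, 2.14 in the ependyma and 1.01 in total brain. Its soluble inhibitor Il18bp was at 5.47 and 4.99 in the pineal gland, 4.35 in the subcommissural organ, 22.3 in the subfornical organ, 9.57 in the ependyma and 7.19 in total brain. Ligand and inhibitor thus had different orders of tissues. Il15, which supports natural killer cells and memory T cells, lay between 1.08 and 4.27 in all dissected tissues and at 0.287 in total brain. Il16, a ligand of Cd4, was at 5.44 in the subfornical organ, 2.96 in total brain, 1.41 and 1.56 in the pineal gland and under 1.05 in the other tissues. Another Il16 probe lay on the other side in its comparisons with the ependyma, at values under 1.05. Il33, an alarmin of the nucleus, was named after its values were seen, with 8.23 and 6.19 in the pineal gland and between 2.15 and 4.27 elsewhere. Its other probe was at most 0.751 on every array.

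Il4r, the chain shared by the receptors of Il4 and Il13, was at 3.51 and 4.55 in the pineal gland, 103 in the subcommissural organ, 18.5 in the subfornical organ, 12.4 in the ependyma and 3.26 in total brain. The subcommissural organ stood 31.6-fold above total brain and 8.28-fold above the ependyma. Neither Il4 nor Il13 reached 1.05 on any array, and the signal transducer gene Stat6 lay between 1.55 and 2.91 on all 6. Il13ra2, a decoy receptor of Il13, was at 7.37 and 8.76 in the pineal gland, 2.87 in the subfornical organ and at most 0.444 in the other tissues.

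Both chains of a receptor of the interleukin 17 family were highest in the pineal gland. Il17re was at 12.2 and 7.76 there and between 0.389 and 0.673 in the other tissues. Its partner Il17ra was at 7.97 and 8.97 there and between 2.04 and 3.07 elsewhere, while its other probe was at most 0.800 on every array. For both genes the 2 pineal gland arrays lay above the other 4, and the share of all genes that do so was not counted. Il10rb, which pairs with several receptor chains and was named after its values were seen, showed 12.8 and 13.5 there and between 3.55 and 6.05 elsewhere.

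Il6st is the shared signal transducer of the interleukin 6 family. By its brightest probe it had the smallest range among the 5 bright members, 1.43 on the log2 scale over tissues. It stood at 26.2 and 11.8 in the pineal gland, 47.4 in the subcommissural organ, 33.6 in the subfornical organ, 38.6 in the ependyma and 22.2 in total brain. The pineal gland arrays differed from each other about as much as several tissues did. Il6st also had a probe that ran from 1.41 in total brain to 7.67 in the ependyma, a log2 difference of 2.44. A dimmer Il6st probe was instead highest in total brain, at 2.13. It was at 2.06 in the subfornical organ, 1.83 in the subcommissural organ, 1.04 in the ependyma and at most 0.670 in the pineal gland. The small range of Il6st therefore holds for its brightest probe only. Il2rg, the common chain of a group of interleukin receptors, was at 2.82 in the subfornical organ and at most 0.688 elsewhere. Il7r reached 1.05 in total brain alone, at 1.38. Its other probe was at 1.08 in the subcommissural organ and under 0 in total brain, so the probes disagreed and the tissue that Il7r marks is uncertain.

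Within the TNF families, Tnfrsf9, a costimulatory receptor of T cells, was bright in all dissected tissues. It stood at 45.7 and 38.7 in the pineal gland, 53.2 in the subcommissural organ, 50.3 in the subfornical organ, 69.8 in the ependyma and 12.8 in total brain. Total brain lay below all 5 other arrays. Its ligand gene Tnfsf9 reached 1.05 in the ependyma at 2.92 and in total brain at 2.55 only. Tnfrsf12a, a receptor induced by injury and growth factors, was at 4.12 and 4.0 in the pineal gland and between 8.18 and 11.9 in the other tissues. Its ligand gene Tnfsf12 was at 3.08 and 6.39 in the pineal gland, 1.72 in the subcommissural organ, 3.15 in the subfornical organ, 1.37 in the ependyma and 6.15 in total brain. Tnfsf13, a survival factor of B cells and plasma cells, was at 16.1 in the subfornical organ, 8.70 in total brain, 6.21 in the subcommissural organ, 2.22 in the ependyma and 2.00 and 3.10 in the pineal gland. Tnfsf12 and Tnfsf13 are neighbours on GRCr8, and their order of tissues differed. Tnfrsf1a, the main receptor of Tnf, was highest in the ependyma at 9.02, with 3.95 and 3.81 in the pineal gland and between 2.35 and 4.78 in the other tissues. Tnfrsf19 reached the pooled median in the ependyma alone, at 3.59, and Tnfsf15 in the subfornical organ alone, at 1.22.

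The comparison of the pineal gland with total brain asked what the gland expresses beyond brain tissue at large. Ccl19, Cxcl17, Il13ra2 and Il17re were higher in the gland, and Cx3cl1, Ccl27 and Cxcl12 were lower. Of the 47 members measured there, meaning that the higher side reached 1.05, 16 (34.0%) differed at least 4-fold, against 21.2% of all genes measured. Higher were 7, against 6.83% of all genes, and lower 9, against 14.4%. A member that is measured only through its bright side has to differ, so this count was repeated with values under 1.05 set at 1.05, which left 8 members, 5 higher and 3 lower, against 15.6% of all genes, 4.21% higher and 11.4% lower. By limma, 17 members passed an adjusted p of 0.05, 8 higher and 9 lower, where 24.0% of all genes passed, 7.72% higher and 16.3% lower. Limma took its spread from the 2 pineal gland arrays alone, with 1 residual degree of freedom, and the standard error was the same for every gene, 0.73 on the log2 scale, so a call amounted to a difference of at least 1.83 and an adjusted p only restates the size of a difference. No p-value is therefore given for single genes. With values under the pooled 25th percentile raised to it, limma called 0 members, with 25 at an unadjusted p under 0.05, and the 4-fold count was then 15.

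On the gland's higher side, Ccl19 differed from total brain by 3.88 on the log2 scale (SE 0.73), 14.7-fold. Cxcl17 was 9.93-fold higher. Il17re was at least 9.26-fold and Il13ra2 at least 7.65-fold higher, and Il18 at least 4.58-fold, all with total brain under the pooled median. Cx3cl1 was 21.3-fold lower (log2 difference -4.41), Ccl27 6.45-fold and Cxcl12 4.85-fold. The remaining calls, among them Ccl6, Il15, Il1a, Il1rn and Tnfrsf17, did not keep 4-fold at the bound. After quantile normalization the split of members at 4-fold was 11 higher and 7 lower, and their median difference, -0.31 as deposited against -0.45 for all genes, turned to 0.21, while that of all genes became 0.03. Genes of antigen presentation summed to 50.6 and 82.8 in the pineal gland and 24.6 in total brain, with RT1-Bb and Clec9a under 1.05 on every array. Their part in the higher members was not tested.

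Set against the ependyma, the pineal gland showed the reverse placement of Ccl17 and Ccl19. Of 43 measured members 18 (41.9%) differed at least 4-fold, against 18.3% of all genes, with 11 higher, against 6.57%, and 7 lower, against 11.7%. After the bound 11 remained, 6 higher and 5 lower, against 13.3% of all genes, 4.50% higher and 8.80% lower. By limma 19 passed, 12 higher and 7 lower, where 20.3% of all genes did, 7.32% higher and 13.0% lower. With the floor at the 25th percentile limma called 0 members, with 20 at an unadjusted p under 0.05. Ccl19 was 69.5-fold higher (log2 difference 6.12, SE 0.72). Il17re was at least 9.26-fold, Cxcl17 8.23-fold, Il13ra2 at least 7.65-fold, Il17ra 4.14-fold and Ccl7 at least 4.05-fold higher. Ccl17 was at least 75.7-fold lower, Cxcr4 15.7-fold, Cx3cl1 6.42-fold, Cxcl12 4.24-fold and Ccl27 4.02-fold. Comparisons that use the same ependyma or total brain array share its error.

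Within the pineal gland pair, none of 39 members measured there differed 4-fold, where 1.12% of 8007 genes did. The standard deviation of the log2 difference between the arrays was 0.57 over these members and 0.65 over all genes.

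The other comparisons had 1 array on each side, so their differences have no replicate check and no p-value is given. In the subcommissural organ, Il4r and Cxcr4 were higher than in total brain, and Il34 and Cx3cl1 were lower. Of 43 measured members 15 (34.9%) differed at least 4-fold, against 23.7% of all genes, 5 higher, against 8.76%, and 10 lower, against 14.9%. After the bound 8 did so, 4 higher and 4 lower, against 17.6% of all genes, 6.21% higher and 11.4% lower. Quantile normalization gave 5 higher and 7 lower. Il4r was 31.6-fold higher, Cxcr4 5.63-fold, Tnfrsf9 4.15-fold and Il18 at least 4.04-fold. Il34 was 24.7-fold lower, Cx3cl1 9.52-fold, Ccl19 5.12-fold and Cxcl14 4.70-fold. Members had a median log2 difference of -0.73, against -0.29 for all genes. After the bound these medians were -0.39 and -0.25, so much of the gap came from values under the pooled median. Microglia and macrophage genes summed to 108 in this organ and 483 in total brain, and neuron genes to 54.2 and 699, and their part in the lower members was not tested.

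In the subfornical organ, Ccl5, Cxcl13, Il4r and Il15 were higher than in total brain. Of 51 measured members 13 (25.5%) differed at least 4-fold from total brain, against 17.0% of all genes, with 12 higher and 1 lower, where all genes split into 7.23% higher and 9.76% lower. After the bound 4 remained, all higher, against 11.5% of all genes, 4.25% higher and 7.22% lower, so most of these members were dim. Ccl5 was at least 8.70-fold, Cxcl13 at least 5.73-fold, Il4r 5.68-fold and Il15 at least 4.06-fold higher. The member median was 0.88, against -0.20 for all genes, and 34 of the 51 lay above 0, where 3920 of 9173 genes did. With values under 1.05 set at 1.05, the medians were 0.78 and -0.17. A member measured only through the subfornical organ has to lie above 0, so the filter sets part of this count and of the medians. With quantile normalization and without the bound, the member median was 1.04, against 0.06 for all genes. The other higher members, such as Ccl6, Cxcl16, Tnfrsf4 and Ccr10, had total brain under the pooled median. The other probe of Tnfrsf4 gave the same side, and that of Cxcl16 lay under 1.05 on both sides. Microglia and macrophage genes summed to 820 in the subfornical organ, the highest of the 6 arrays, against 483 in total brain, with 10 of 13 at or above 1.05, and Ptprc, the general leukocyte gene, at 0.51. Genes of dendritic cells and antigen presentation summed to 50.0 there against 24.6, with 5 of 7 at or above 1.05, and astrocyte genes to 849 against 454, with 6 of 6. The part of these cells in the higher members was not tested.

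In the ependyma, Ccl17, Cxcr4 and Tnfrsf9 were higher than in total brain. Of 42 measured members 12 (28.6%) differed at least 4-fold, against 17.0% of all genes, 6 higher, against 7.47%, and 6 lower, against 9.51%. After the bound 5 did so, 3 higher and 2 lower, against 11.3% of all genes, 4.72% higher and 6.63% lower. Ccl17 was 51.3-fold higher, Cxcr4 12.1-fold and Tnfrsf9 5.44-fold. Ccl19 was 4.72-fold and Tnfsf12 4.48-fold lower. The split became 8 higher and 4 lower after quantile normalization, and the member median moved from -0.27 to 0.02, where that of all genes moved from -0.41 to -0.06. Microglia and macrophage genes summed to 573 in the ependyma.

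Against the ependyma, the subcommissural organ had higher Il4r and lower Ccl17 and Il34. Of 38 measured members 6 (15.8%) were at least 4-fold apart, against 12.9% of all genes, 1 higher, against 445 of 8893 genes, and 5 lower, against 7.89%. After the bound 3 were, 1 higher and 2 lower, against 7.79% of all genes, 2.91% higher and 4.88% lower. These were Il4r, 8.28-fold higher, Ccl17, at least 75.7-fold lower, and Il34, 13.6-fold lower. For the subfornical organ against the ependyma the count was 15 of 50 (30.0%), against 13.6% of all genes, with 12 higher, against 6.89%, and 3 lower, against 6.75%. After the bound 7 were, 5 higher and 2 lower, against 8.65% of all genes, 4.38% higher and 4.26% lower. Ccl19 was 16.4-fold higher in the subfornical organ, Ccl5 at least 8.70-fold, Tnfsf13 7.27-fold, Cxcl13 at least 5.73-fold and Il16 at least 5.18-fold. Ccl17 was 23.4-fold and Cxcr4 5.18-fold lower. The member median was 0.80, against 0.13 for all genes, and at the bound 0.57 against 0.12.

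**Figure D4:**
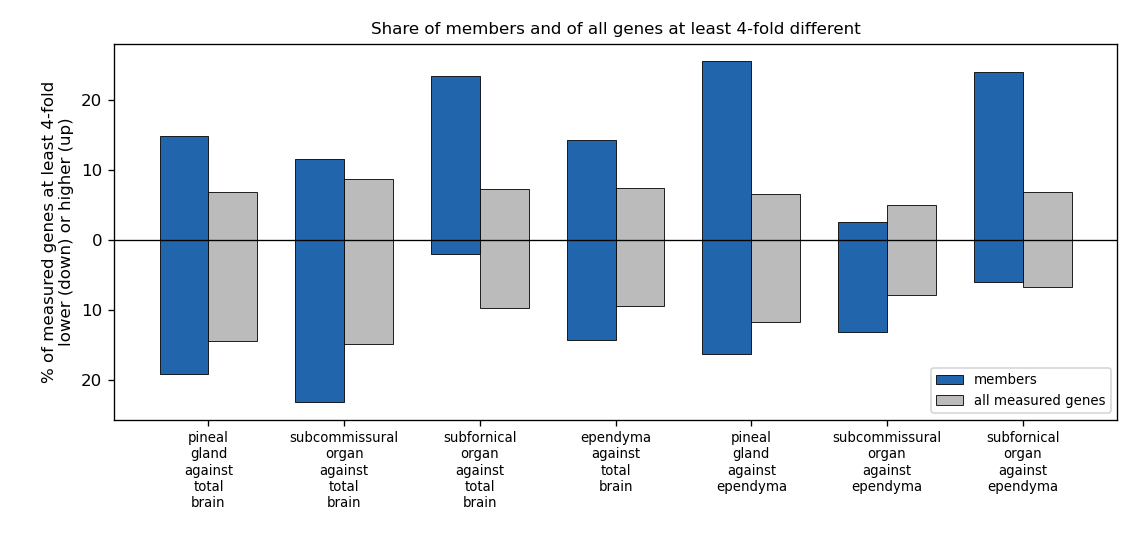
Percent of measured members (blue) and of all measured genes (grey) at least 4-fold higher (upward bars) or lower (downward bars) in 7 comparisons, with 0 at the centre line. The subfornical organ has 12 of 51 members higher and 1 lower than total brain, against 7.23% and 9.76% of all genes. The subcommissural organ has 5 of 43 higher and 10 lower than total brain, against 8.76% and 14.9%. The bars are drawn without the bound. With values under the pooled median set at that median, the subfornical organ has 4 higher and 0 lower. The subcommissural organ then has 4 higher and 4 lower.

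Genes that act downstream, or belong to the same families under other names, were counted from lists. Of 25 JAK, STAT and SOCS genes 21 were on the array, and at most 17 were measured in a comparison. At 4-fold in pineal gland against total brain, 1 was higher and 0 lower, against 6.83% and 14.4% of all genes. After the bound 0 were past 4-fold, against 15.6% of all genes. Stat3, a main target of Il6st, lay between 55.8 and 131 on all arrays. Socs6 was at least 6.78-fold higher in the subcommissural organ and at least 4.36-fold in the subfornical organ than in total brain, and Ptpn6, a phosphatase of blood cell receptors, was 7.21-fold lower in the subcommissural organ.

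Of 40 genes of NF-kB, TRAF and interleukin 1 receptor signalling, 35 were on the array and 28 were measured in pineal gland against total brain. There 3 were higher and 0 lower at 4-fold, against 6.83% and 14.4% of all genes. After the bound 1 was higher and 0 lower, against 4.21% and 11.4%. Nfkb2, the precursor subunit of the alternative pathway that several TNF receptors drive, was at 10.1 and 11.7 in the pineal gland, 24.4 in the subcommissural organ, 21.1 in the subfornical organ, 12.6 in the ependyma and 2.66 in total brain. It was above total brain by 4.09-fold in the pineal gland, 9.20-fold in the subcommissural organ, 7.93-fold in the subfornical organ and 4.72-fold in the ependyma. All 4 folds rest on the same total brain array. Sigirr, an inhibitory receptor of this family, was at least 7.74-fold lower in the subcommissural organ than in total brain.

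Among 20 chemokine and TNF family genes under other symbols, Ackr1, a scavenging chemokine receptor of venules, was at 16.4 and 13.3 in the pineal gland, 0.630 in the subcommissural organ, 2.59 in the subfornical organ, 3.10 in the ependyma and 26.9 in total brain. Rarres2, which encodes the attractant chemerin, was 9.09-fold lower in the subcommissural organ than in total brain. Ltb, a TNF family ligand of lymphoid tissue, was at 16.5 in the subfornical organ, 4.02-fold above total brain. Of 31 other cytokine and receptor genes, Tgfb3 was at 34.3 and 28.7 in the pineal gland, 42.9 in the subfornical organ, 11.3 in total brain, 2.71 in the ependyma and 0.508 in the subcommissural organ. Ctf1, a ligand that signals through Il6st, was at least 7.18-fold higher in the subcommissural organ, at least 6.17-fold in the subfornical organ and at least 6.24-fold in the ependyma than in total brain.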

How the data were processed

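Gene expression was measured on 6 arrays of 1 colour. The authors deposited a linear intensity for each probe on each array, as the values show, and scanner, background correction and scaling are not given in the sources used here. Entries of -9999 were treated as missing. The platform annotation gave a single symbol to 16865 of 35129 probes and several to 165, and did not list 18099. Each gene took its brightest probe with a value on all 6 arrays (12167 genes). Lower values were set to 0.142 (pooled 5th percentile) before log2, with no further scaling. Measured means that the higher of both sides was at or above 1.05 (pooled 50th percentile). A 4-fold call needed both pineal gland arrays on the same side. A fold whose lower side lay under 1.05 is given against 1.05 as a bound ("at least"). The pineal gland was also tested against total brain and ependyma with limma 3.58.1 in R 4.3.3 (lmFit and eBayes, all 6 arrays, Benjamini-Hochberg over all measured genes, two-sided), which was tested on simulated data. The lone array is assumed to vary like the pineal gland pair. Members and lists were chosen with earlier results of these data known. Named were Ccl17, the 12 largest differences past 4-fold after the bound in each comparison, the 4 widest bounded ranges in each class, members that mark a tissue, up to 6 with the smallest range among those above the pooled 75th percentile on all arrays, and those whose probes disagree; of the signalling lists, up to 4 past 4-fold after the bound per list and comparison. Alternatives were quantile normalization, other filters and floors, the median of all probes, an intensity trend in eBayes and leaving out each pineal gland array. Promoters came from RefSeq GRCr8.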

Additional observations from a re-analysis of the deposited data

How the results depend on the processing

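No paired analysis was possible because only the pineal gland carries replicate numbers. Raising the filter to the pooled 75th percentile reduced the members at 4-fold to 7 (pineal gland), 7 (subcommissural organ), 2 (subfornical organ) and 5 (ependyma) against total brain, and to 10, 3 and 5 for the first 3 of these against the ependyma. A floor at the pooled 50th percentile gave, in the same order, 8, 8, 4 and 5 against total brain and 11, 3 and 7 against the ependyma. Either change left 5 members that marked a tissue. Without a filter, the subcommissural organ had 14 members at 4-fold against the ependyma. Limma against total brain called 10 members with the stricter filter, 8 without a filter and 11 after quantile normalization. Against the ependyma it called 12 with the stricter filter and 7 without a filter. With the floor at the 25th or the 50th percentile limma called 0 members in both comparisons, while 25 and 24 members against total brain and 20 and 19 against the ependyma had an unadjusted p under 0.05. The cause of these changes was not tested. The counts under these settings are given without the share of all genes, so they do not set members against other genes. Without 1 pineal gland array, the count at 4-fold ranged from 15 to 19 against total brain and from 16 to 17 against the ependyma, and the members that marked a tissue from 8 to 9. Limma was not run without a pineal gland array, since no residual degree of freedom is left. Of 334 values of 70 named differences under the alternatives, 266 moved by less than the replicate SD of 0.46, 67 moved by more and 1 reversed, that of Il7r in the subcommissural organ against total brain, which was 0.39 with the median of its probes. Dim signal limits the counts, and the limit of detection is unknown.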

Other observations

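Several members that lie outside the naming rule differed between tissues at low intensity and were chosen after their values were seen. Il1a, the alarmin form of interleukin 1, was at 2.83 in total brain and at most 0.755 on the other arrays, and another of its probes lay on the same side in the pineal gland, the subcommissural organ and the ependyma. Its antagonist gene Il1rn was at 3.37 in total brain, 1.05 on 1 pineal gland array and at most 1.02 elsewhere, while its other probe was at most 1.03 on every array. Tnfrsf17, a receptor of plasma cells, was at 2.95 in total brain and at most 0.836 elsewhere. Cxcl16, a membrane-bound chemokine of macrophages and vessels, was at 2.03 and 1.76 in the pineal gland, 3.07 in the subfornical organ, 1.28 in the subcommissural organ, 1.11 in the ependyma and 0.551 in total brain, while its other probe was at most 0.606 on every array. Il12a was at 2.23 in the subfornical organ and at most 0.976 elsewhere. Each was highest in a tissue with 1 array, so none of these maxima has a replicate.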
